A study of Mus musculus with 2 samples.

Results

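In newborn mouse intestine, 6362 binding peaks of the zinc-finger protein CTCF lay in CpG-rich sequence at one-sided promoters of protein-coding genes. They were 8.87% of the 71756 peaks on chromosomes 1 to 19 of the optimal list, which holds 73465 peaks in all. That list keeps peaks by their irreproducible discovery rate (IDR), which compares how peaks rank in replicate lists. A peak was taken where its summit, the base of highest signal, lay within 1 kb of a start of transcription (TSS) of a protein-coding gene. All such TSSs within 1 kb had to lie on 1 strand, and the summit with the 100 bases on either side of it, called the window below, had to hold at least 10 CpG dinucleotides. TSSs were every transcript start of coding genes in GENCODE M21 on the mouse assembly mm10. Within the list, the choice used position and sequence and no signal value. Signal still entered through the list, which was kept by ranks, and through the placing of the summit.

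The tissue was whole intestine at postnatal day 0 from mice of strain B6NCrl, with sex not collected. Chromatin immunoprecipitated with a CTCF antibody was sequenced in 1 group of 2 libraries, labelled biological replicates 1 and 2, with no other genotype, treatment or time. Each library came from intestines that were pulverized and pooled over several dissections. Both cite the same biosample and donor record, so the spread between them may be technical. The lists name no cell type, CTCF peaks do not check the tissue label, and in bulk tissue fewer bound cells and weaker binding per cell cannot be told apart. Read depth is unknown from the lists.

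CTCF helps to fold the genome, since cohesin extruding a DNA loop tends to stop at CTCF bound in 1 orientation. Many mouse genes, among them most housekeeping genes, start in CpG islands, stretches where CpG has been kept because it is usually unmethylated. Methylation of a CpG within the CTCF site can block binding. DNA methylation was not measured here.

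The first set of sequences shows what CTCF was found on at the strongest of these promoters. Each is the best-scoring 19-base stretch near the summit, printed 5′ to 3′ on the strand that carries the motif, from the RefSeq sequence of GRCm38.p6, the same assembly as mm10. Capitals mark CpG.
Nipsnap2 (chr5:129724993-129725011, minus strand): CGgcCGctagggggagcag
Acbd4 (chr11:103102812-103102830, plus strand): tttccaccagggggCGCGa
Lsm11 (chr11:45945024-45945042, plus strand): CGgccaccagggggcagca
Adprhl2 (chr4:126321744-126321762, minus strand): gggccacaagggggCGctg
Gins4 (chr8:23237883-23237901, minus strand): tCGccacaagaCGgCGctg
Pik3r2 (chr8:70769552-70769570, minus strand): tgctcaccagggggCGctc
Med4 (chr14:73509894-73509912, plus strand): tgccctgtagatggCGcta
Cirbp (chr10:80165236-80165254, minus strand): aggacaggagagggCGcta
Comtd1 (chr14:21849042-21849060, minus strand): cagccacCGggtggCGaga
Pkn3 (chr2:30077600-30077618, plus strand): tggcCGggagggggCGctg
H2-DMa (chr17:34135416-34135434, plus strand): cttccaccagggggCGgag

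A second set shows strong peaks whose best stretch scored below the motif threshold, again with CpG in capitals.
Rrp1 (chr10:78413096-78413114, minus strand): CGgccactgagaggCGgta
Atad2b (chr12:4917329-4917347, minus strand): CGgcCGctgCGgggCGctg
Atp5g2 (chr15:102671200-102671218, minus strand): tggaCGccaggtggagtgc
Timm22 (chr11:76406765-76406783, minus strand): cttgcagcaggggaCGCGc
B9d1 (chr11:61504849-61504867, minus strand): tctccaggtggtgtCGctg

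Whole windows, with 100 bases on either side of the summit, are shown for a strong peak with a motif, a strong one without, and a peak with many CpG. In the Gins4 window capitals mark the motif, which reads in the direction of the gene, and in the other windows they mark CpG. The windows overlap no exon of a coding gene.
Gins4 (chr8:23237771-23237971, minus strand): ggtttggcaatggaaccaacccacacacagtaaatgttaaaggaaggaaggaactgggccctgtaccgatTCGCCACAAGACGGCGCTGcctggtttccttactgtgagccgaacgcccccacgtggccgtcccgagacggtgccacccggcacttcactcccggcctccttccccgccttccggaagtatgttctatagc
Timm22 (chr11:76406672-76406872, plus strand): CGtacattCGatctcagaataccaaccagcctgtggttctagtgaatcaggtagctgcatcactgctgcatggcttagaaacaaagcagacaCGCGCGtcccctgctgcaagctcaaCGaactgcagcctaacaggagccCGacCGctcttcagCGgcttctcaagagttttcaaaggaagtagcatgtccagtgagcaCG
Mif4gd (chr11:115612554-115612754, minus strand): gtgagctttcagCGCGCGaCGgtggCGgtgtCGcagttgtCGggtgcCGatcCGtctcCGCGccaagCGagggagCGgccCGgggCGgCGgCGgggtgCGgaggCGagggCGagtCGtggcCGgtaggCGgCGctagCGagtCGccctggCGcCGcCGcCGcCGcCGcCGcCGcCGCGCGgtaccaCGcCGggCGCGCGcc

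Peaks at CpG-rich promoters were found in both libraries in most cases. A replicate summit lay within 100 bases in the list of replicate 1 for 95.9% of them, in that of replicate 2 for 96.0%, and in both for 5886, or 92.5%. A further 214 were matched in replicate 1 only, 221 in replicate 2 only and 41 in neither. The replicate lists are long, so a match there is a weak criterion. The optimal list was itself kept by agreement of ranks between lists, so a high match was largely fixed in advance. Matched in both were 95.9% of peaks at one-sided promoters with fewer CpG and 90.0% at bidirectional coding promoters. It was 97.0% of CpG-rich peaks beyond 1 kb of any coding TSS. Both matching peaks ranked within the strongest 73465 of their lists for 77.4% of the promoter peaks, and this share was 90.0% with a motif and 69.7% without one.

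Signal is the authors' enrichment value per peak, on a scale whose normalization is not stated, and ranks peaks within 1 list. Over the 5886 peaks matched in both libraries, the rank correlation of the 2 replicate signals was 0.930. It was 0.978 over the 2342 with a motif and 0.861 over the 3544 without. These are correlations across peaks, which are not independent and which span different ranges of signal with and without a motif. Selection by IDR also favours peaks whose ranks agree, so a high value is partly built in. The correlation was 0.954 at one-sided promoters with fewer CpG and 0.910 at bidirectional coding promoters. For CpG-rich peaks beyond 1 kb of any coding TSS it was 0.977.

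**Figure D1:**
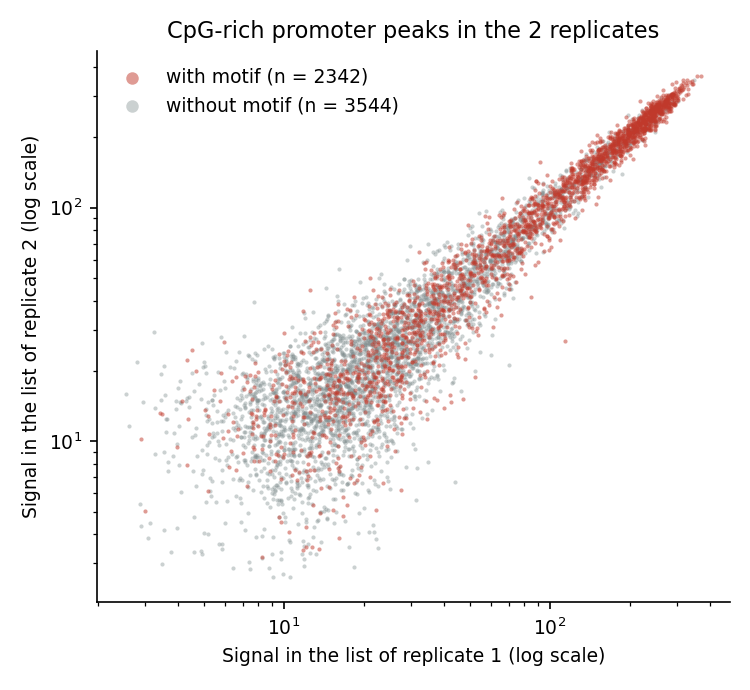
Signal of each CpG-rich promoter peak in the list of replicate 1 (horizontal, log scale) and of replicate 2 (vertical, log scale), for the 2342 peaks with a CTCF motif and the 3544 without that were matched in both. Points spread more widely at low signal, where most peaks without a motif lie.

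Most of the CpG-rich promoter peaks were weak for this list. Their median signal was 57.1, with quartiles of 29.6 and 168 and a range of 4.49 to 732, against a median of 76.0 over the optimal list. The 5814 peaks at one-sided promoters with fewer CpG, called CpG-poor here, had a median of 72.9, the 964 peaks at bidirectional coding promoters 51.4, and the 1909 CpG-rich peaks beyond 1 kb of any coding TSS 145. Above the median of the optimal list lay 41.7% of CpG-rich promoter peaks and 48.7% of CpG-poor ones. The conservative IDR list also held 80.8% of the CpG-rich and 85.2% of the CpG-poor promoter peaks with the identical interval and summit. The same rule applied to the conservative list itself gave 5937 CpG-rich promoter peaks. Differences between these sets of peaks were not tested, since the design has 1 group, and the 95% Wilson intervals given below cover counting of peaks only, while neighbouring peaks are not independent.

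Strong peaks were also present: 173 of the 1000 strongest of the optimal list were CpG-rich promoter peaks, and 160 of these had a motif. The share among the 1000 is above their share of 8.87% of all peaks on chromosomes 1 to 19. Of the CpG-rich promoter peaks, 10.2% fell in the strongest 10% of that list. The strongest lay 75 bases upstream of the TSS of Nipsnap2, which encodes a mitochondrial protein, with a signal of 732 in the optimal list, 370 in the list of replicate 1 and 365 in that of replicate 2. Upstream of Acbd4, which encodes an acyl-CoA-binding protein, the signal was 721, with 358 in replicate 1 and 367 in replicate 2. Nipsnap2 ranked 2 in the list of replicate 1 and 6 in that of replicate 2, and Acbd4 ranked 7 and 5. In what follows, a pair of values in brackets gives the signal in replicate 1 and then in replicate 2.

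The other peaks among the 12 strongest had signals of 658 to 697. Their genes include Lsm11, whose product helps to process histone mRNA, at 683 (344 and 348), and Adprhl2, an ADP-ribose hydrolase, at 682 (346 and 339). Gins4, a subunit of the replicative helicase, had 680 (327 and 354), and its peak lay 212 bases upstream of the TSS. Med4, a Mediator subunit, had 673 (342 and 338), and Pik3r2, a regulatory subunit of phosphoinositide 3-kinase, had 677 (336 and 346).
The remaining ones were at Cirbp, which encodes a cold-inducible RNA-binding protein, with 664, Comtd1 with 660, Pkn3, a protein kinase, with 659, and H2-DMa, which loads peptides onto MHC class II, with 658. The lowest rank among the 12 was 92 in the list of replicate 1 and 59 in that of replicate 2, so all were strong in both libraries. The peak at Pik3r2 alone among the 12 had its summit downstream of its nearest TSS, by 136 bases.

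Most CpG-rich promoter peaks had no called CTCF motif. The matrix of 19 bases was trained on the 5000 strongest optimal peaks more than 10 kb from any TSS, so that no promoter peak entered it. A motif was called where a stretch within 100 bases of the summit scored at least 8.72, a score that 5% of 698 CpG-rich promoter windows with no peak in the pooled list reach. At this threshold 2410 of 6362, or 37.9% (36.7 to 39.1%), had a motif, against 66.1% (64.9 to 67.3%) of CpG-poor promoter peaks. It was 35.8% at bidirectional promoters and 58.4% at CpG-rich peaks away from coding TSSs. Taking the strongest peaks of 1 replicate alone gave 37.0% for replicate 1 and 37.6% for replicate 2.

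The gap to CpG-poor peaks depended on the matrix. One trained on the 500 strongest CpG-rich peaks away from coding TSSs, chosen after seeing the data, called 37.5% of CpG-rich promoter peaks and 42.4% of CpG-poor ones. At its own threshold it called 5.01% of CpG-rich windows and 0.482% of CpG-poor windows with no pooled peak, against 5.01% and 3.98% with the first matrix. Both matrices called 1917 CpG-rich promoter peaks, the first alone 493, the second alone 468 and neither 3484.

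Signal and motif moved together among the CpG-rich promoter peaks. The median signal was 157 with a motif and 41.2 without, and the corresponding values at CpG-poor promoters were 112 and 40.4. In the weakest 10% of the optimal list 13.5% (11.4 to 15.8%) of the CpG-rich promoter peaks had a motif, and in the strongest 10% it was 86.1% (83.2 to 88.6%) of 648. CpG-poor promoter peaks had 36.1% (32.6 to 39.9%) and 94.4% (92.1 to 96.0%) in the same ranges of signal. The rank correlation of signal with motif score was 0.49 over all 6362 and 0.44 over the 2410 with a motif. With the number of CpG it was −0.095, a weak relation within these peaks. The median signal fell from 66.4 at 10 to 14 CpG to 49.3 at 25 or more.

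**Figure D2:**
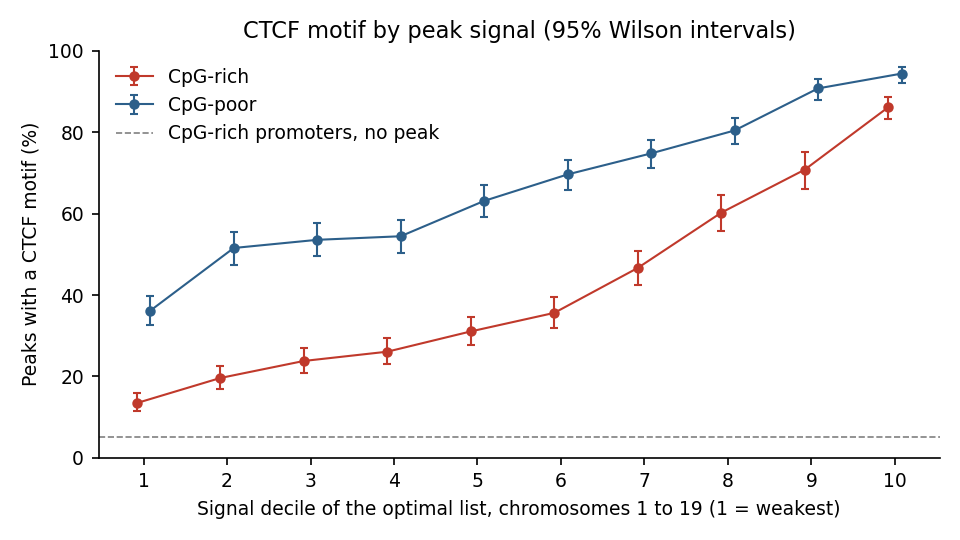
Share of peaks with a CTCF motif (vertical, percent) by signal decile of the optimal list (horizontal, 1 is weakest), for CpG-rich and CpG-poor one-sided promoter peaks, with 95% Wilson intervals. The dashed line is the share in CpG-rich promoters with no pooled peak, 5.01%, and the CpG-rich share is 13.5% in the weakest decile and 86.1% in the strongest.

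Peaks without a called motif were uncommon only near the top of the list. Above the median signal of the optimal list 1587 of 2654, or 59.8%, had a motif, against 86.1% in the strongest 10%. Among the 12 strongest, 1 had none, at Rrp1, which encodes a protein of ribosomal RNA processing. Its signal was 697, with 348 in replicate 1 and 354 in replicate 2, and its best stretch scored 7.14. The next were at Atad2b, a bromodomain ATPase, with 619 (305 in replicate 1 and 317 in replicate 2), and at Atp5g2, a subunit of ATP synthase, with 585 (304 and 287). At Timm22, which encodes the channel subunit of a mitochondrial import complex, the signal was 584 (285 and 303), and at B9d1, which encodes a protein of the ciliary transition zone, it was 582 (281 and 303). Snrpd1, a core protein of spliceosomal particles, had 575 (293 and 282). Scores of these 6 lay between 5.77 and 8.49, below the threshold of 8.72.

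Summits crowded around the TSS. Within 100 bases of it lay 44.3% of the CpG-rich promoter peaks, against 17.5% of CpG-poor ones, and within 250 bases 70.4% against 33.9%. The median distance was 124 bases at CpG-rich promoters and 419.5 bases at CpG-poor ones. The rule selected on CpG, and the median per window was 19 CpG in the 100 bases upstream of the TSS and 20 in those just after it, against 15 beyond 500 bases upstream and 16 beyond 500 bases downstream. Of 8 position classes, the highest median signal was in the 100 bases just upstream, with 1668 peaks, a median signal of 77.8 and a motif in 44.3% (41.9 to 46.7%). The TSS and the 100 bases after it held 1153 peaks, with a median signal of 45.6 and a motif in 27.1% (24.6 to 29.7%). CpG-poor promoter peaks had the same order. Their median signal was 94.3 just upstream and 54.9 from the TSS to 100 bases after it, with a motif in 63.0% and 54.2%.

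Of all CpG-rich promoter peaks 47.3% had the summit downstream of the nearest TSS and 52.4% upstream. With 1 TSS a gene in place of every transcript start, the downstream share was 58.6%, so the side depended on which starts were counted. Above the median signal of the optimal list it was 38.5%. By annotation 31.8% of summits lay in upstream or intergenic sequence, 26.8% in a 5′ UTR, 24.3% in an intron, 13.1% in coding sequence, 3.54% in another exon and 0.424% in a 3′ UTR. A summit took the first class that held it, in the order 5′ UTR, coding sequence, 3′ UTR, other exon and intron. Any transcript of any coding gene counted, so a summit upstream of its nearest TSS can fall in a class within a gene.

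**Figure D3:**
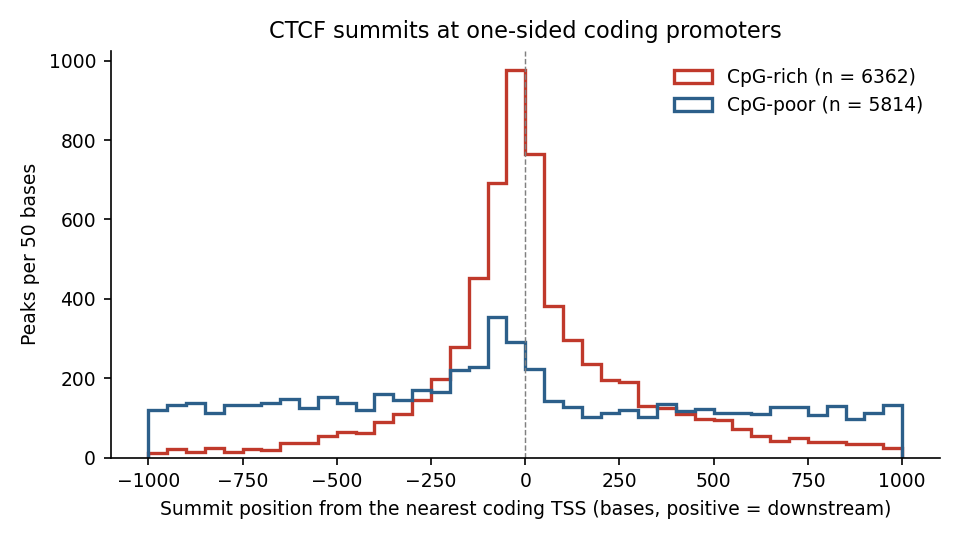
Number of summits per 50 bases (vertical) by position from the nearest coding TSS in bases (horizontal, positive is downstream), for the 6362 CpG-rich and 5814 CpG-poor one-sided promoter peaks. Summits of both sets are densest around the TSS, the CpG-rich ones more so, and the CpG-poor ones spread more over the whole window.

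Where the summit lay close to the TSS, the orientation of the called motif leaned towards the direction of transcription, most of all just upstream. Positions here are those of the summit, and the motif can lie up to 100 bases from it. Over all 2410 motifs, 58.0% (55.98 to 59.9%) read in sense orientation, against 50.7% at CpG-poor promoters. In the 100 bases upstream of the TSS it was 497 of 739, or 67.3% (63.8 to 70.5%), and 67.7% and 67.0% in replicates 1 and 2 alone. From the TSS to 100 bases downstream it was 181 of 312, or 58.0% (52.5 to 63.4%), and more than 100 bases downstream 48.1% (44.3 to 51.9%), where the interval holds 50%. Farther upstream, to 1 kb, it was 57.4% (53.8 to 61.1%), but beyond 500 bases upstream 45.6% (36.8 to 54.8%), where the interval also holds 50%. The orientation just upstream was 68.5% with 1 peak a gene and 64.8% with the matrix from CpG-rich peaks. CpG-poor promoter peaks had 57.7% (52.9 to 62.4%) there. Of the sites printed above, those of Nipsnap2, Lsm11 and Cirbp read against their gene, and the other sites of the strongest peaks read along it.

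**Figure D4:**
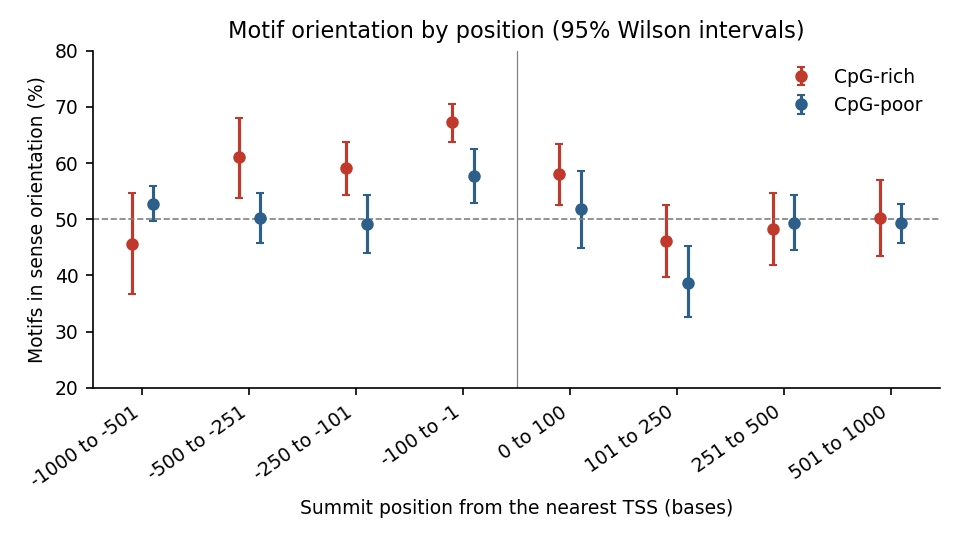
Share of CTCF motifs in the sense orientation of the gene (vertical, percent) by position of the summit from the nearest TSS (horizontal, bases), for CpG-rich and CpG-poor one-sided promoter peaks, with 95% Wilson intervals and a dashed line at 50%. The CpG-rich share is highest, 67.3%, in the 100 bases upstream of the TSS.

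The motif sites themselves held CpG, a property that the count of CpG in the rule partly fixed. Positions 4 to 16 of the 19 held a CpG in 81.1% (79.5 to 82.6%) of CpG-rich promoter motifs and 34.4% of CpG-poor ones. It fell mostly at 2 places: positions 15 and 16 held it in 65.1% against 27.8%, and positions 5 and 6 in 34.1% against 6.82%. The site of Acbd4 above has the first of these, and those of Nipsnap2 and Pkn3 the second. The CpG-rich peaks away from coding TSSs had 63.6% and 29.3% at these positions.

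Peaks with the most CpG were not the strongest. The window at Chd1, a chromatin remodeller, held 44 CpG, with a signal of 37.1 in the optimal list, 26.7 in replicate 1 and 9.12 in replicate 2, and no motif. Mif4gd, whose product acts in histone mRNA translation, had 42 CpG, a signal of 213 (113 in replicate 1 and 102 in replicate 2) and a motif. Hectd2, a ubiquitin ligase, also had 42, with 26.1 (19.1 and 7.20) and a motif. Cdk5r1, an activator of Cdk5, and Dpy19l1 had 40 each, with signals of 170 (74.9 and 95.8) and 83.5 (37.7 and 46.8), and no motif. Among these 5, Chd1 and Hectd2 were the weakest, and both ranked lower in replicate 2 (81579 for Chd1 and 95692 for Hectd2) than in replicate 1 (43750 and 52162).
From 10 to 14 CpG the motif share was 43.9% and the median signal 66.4, and at 25 or more these were 34.2% and 49.3. Just inside the limit, at 10 CpG, 396 peaks had a median signal of 65.7 and a motif in 45.5%. Just outside, at 9 CpG, 393 had 76.7 and 48.1%.

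Of 10892 coding genes with a CpG-rich one-sided TSS, 5085, or 46.7%, had such a peak within 1 kb, 58.7% had any optimal summit and 93.6% had a summit of the pooled list. By chromosome the share lay between 42.0% on chromosome 17 and 51.0% on chromosome 18. It was 39.0% for the 2981 genes with 1 such TSS and 55.4% for the 2038 genes with 5 or more, so the number of annotated starts moved with it. By nearest TSS, the peaks belonged to 5311 genes, 4406 with 1 peak, 782 with 2 and 123 with 3 or more.

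Sgms1, a sphingomyelin synthase, Rai1, a transcriptional regulator, and the imprinted Gnas locus, which encodes a G-protein subunit, had 5 each. The 5 at Rai1 had signals of 506, 36.9, 8.02, 15.8 and 118 in order along the chromosome, so 1 strong peak with a motif stood beside weaker ones without. At Gnas they had 181, 158, 30.0, 76.8 and 30.4, and at Sgms1 112, 119, 7.35, 8.30 and 27.3. The weakest of these were matched in 1 library only: at Sgms1 the peak of 7.35 in replicate 2 (4.67) and that of 8.30 in replicate 1 (4.69), and at Rai1 the peak of 8.02 in replicate 1 (7.32). The others were matched in both.

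Against the background of 46.7%, 20 of 22 gene groups named by symbol had a share whose interval holds it. MAP kinases, which relay growth and stress signals, stood above with 23 of 32 genes, or 71.9% (54.6 to 84.4%). Histone genes stood below with 5 of 29, or 17.2% (7.60 to 34.5%). The median number of qualifying TSSs per gene was 3 for MAP kinases, 1 for histones and 2 over all these genes, and its part in the shares was not tested. With 22 intervals side by side and no test, these shares are a description.

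**Figure D5:**
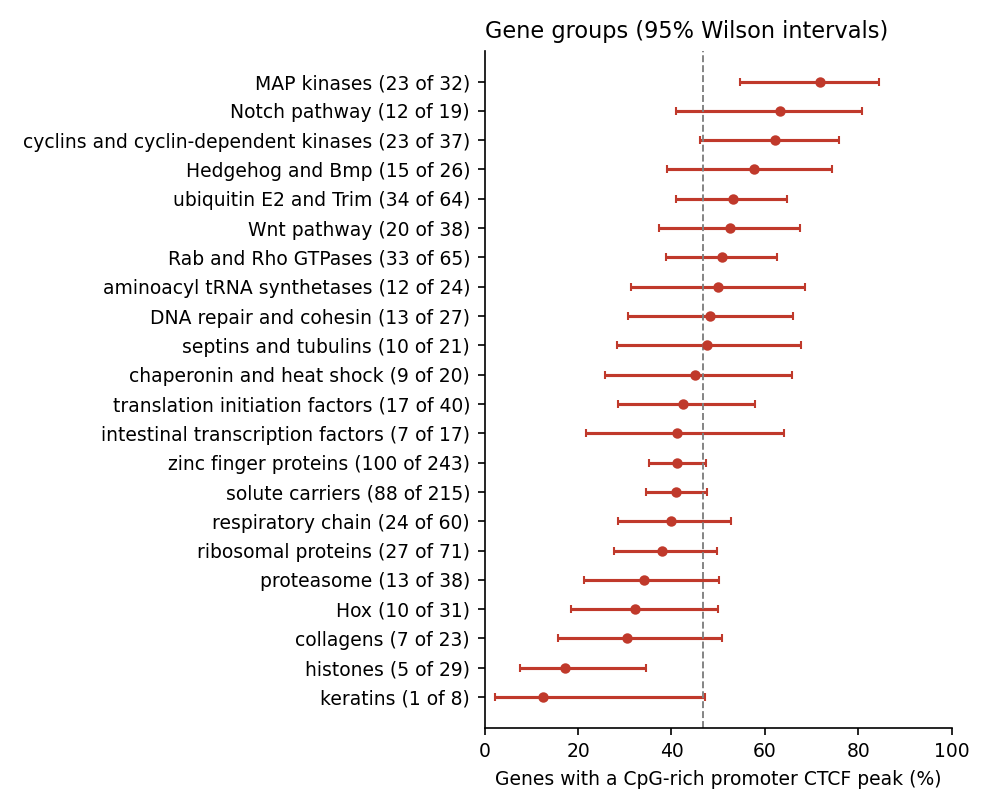
Share of genes with a CpG-rich one-sided TSS that had a CpG-rich promoter CTCF peak (horizontal, percent) for 22 gene groups, with counts in brackets and 95% Wilson intervals. The dashed line is the 46.7% over all such genes, and only the MAP kinase and histone intervals lie wholly to 1 side of it.

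Among the groups of general cell function, the ribosomal protein group had 27 of 71 genes and the respiratory chain group 24 of 60. The proteasome group had 13 of 38, and cyclins with cyclin-dependent kinases 23 of 37. Matching was by symbol pattern, so the ribosomal group can hold Rps6k kinases, and the respiratory and proteasome groups assembly factors (Ndufaf and Psmg symbols). The strongest peak of each gene had a median signal of 302 in the ribosomal, 394 in the respiratory, 42.8 in the proteasome and 122 in the cyclin and cyclin-dependent kinase group, against 68.2 over all genes with a peak. The ribosomal protein gene Rps3a1 had 567 (279 in replicate 1 and 293 in replicate 2), and Ndufb10, a subunit of complex I, had 596 (302 and 298). Psmd6, with the strongest peak of the proteasome group, had 515 (254 and 266), and Cdk9, a kinase that frees paused RNA polymerase, had 606 (294 and 313).
Other groups had their strongest peaks at Zfp398 (580), Slc36a1, an amino acid transporter (582), Trim65 (650), Rab37 (520), Rars, the arginyl-tRNA synthetase (447), Eif3g (460), Hspa8, a heat-shock cognate chaperone (104), Mapk9 (447), Sept5 (490), Col27a1 (523), Hist3h2a (236) and Stag1, a cohesin subunit (495). Hox genes, which set position along the body axis, had 10 of 31, with Hoxa7 strongest at 569 (276 and 294) and a median of 347. Keratins had 1 of 8, at Krt10, with a signal of 13.2.

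Signalling pathways of the developing gut had shares whose intervals hold the background. The Wnt pathway, which maintains intestinal stem cells, had 20 of 38 genes. Its strongest peaks were at Tcf7l1 with 517 (259 in replicate 1 and 260 in replicate 2) and Tcf7l2 with 412 (205 and 209), both transcription factors of the pathway, and at Wnt11, a ligand, with 401 (191 and 209). The Notch pathway, which sets the choice between absorptive and secretory cells, had 12 of 19. Its ligand Jag1 had 429 (217 and 214), the target Hes1 271 (135 and 135) and Hes6, of the same gene family, 118 (69.7 and 47.7). Hedgehog and Bmp genes had 15 of 26, with Gli2, an effector of Hedgehog, at 343 (170 and 171), the receptor Bmpr1b at 183 (96.8 and 85.7) and the inhibitor Smad7 at 99.8 (47.3 and 51.1). Each of these peaks was in both libraries.

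Of 17 intestinal transcription factor genes with a CpG-rich one-sided TSS, 7 had such a peak, or 41.2% (21.6 to 64.0%). Prdm1, a repressor of the neonatal gut epithelium, had 275 (137 in replicate 1 and 138 in replicate 2), Klf4 had 190 (79.8 and 110) and Ascl2, a stem cell factor, had 92.3 (51.1 and 38.1). Klf5 had 88.4, Gata6 86.6 and Gata4 47.5. Of the strongest peak at each of the 7, only that at Gata4 had a motif. The homeobox genes Cdx1 and Cdx2, Sox9, Atoh1, Foxa2, Neurod1 and Neurog3 had no optimal summit within 1 kb of a CpG-rich one-sided TSS, while Elf3 and Foxa1 had one that did not meet the rule. RNA was not measured, so none of these peaks can be set beside expression.

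Short words of other promoter factors were looked for on both strands in CpG-rich windows around the TSS. The 4895 windows at the TSS nearest the strongest CpG-rich promoter peak of a gene had the GC box GGGCGG in 67.9%, against 51.0% of the 698 with no pooled peak and 64.6% of all 32577 CpG-rich one-sided TSS windows. CCAAT stood in 19.3% against 27.4% and 21.2%, the ETS word CCGGAAG in 13.1% against 7.45% and 14.2%, and TATAAA in 2.33% against 3.30% and 2.09%. The cAMP response word TGACGTCA stood in 2.25% against 1.15% and 2.66%, and the ZNF143 word ACTACAA in 1.29% against 1.43% and 1.68%. The words of YY1 and NRF1 stood in 2.39% and 1.39% of the windows of genes with a peak. With no pooled peak it was 0.860% and 1.15%, and over all windows 2.59% and 1.54%. These windows were centred on the TSS, and the summit could lie up to 1 kb away, outside them. Windows of genes with a peak had a median of 21 CpG, against 14 in those with no pooled peak and 20 over all. Several of the words hold a CpG. The shares for genes with a peak lay close to those over all CpG-rich windows, but the units differ. Windows of genes with a peak and those with no pooled peak were 1 a gene, while the 32577 counted every such TSS. The latter can overlap each other and include windows of genes with a peak, so closeness is partly built in.
Around the summits, the GC box stood in 56.5% of peaks with a motif and 54.8% of those without, and the ZNF143 word in 0.830% and 1.64%. A match says only that the letters are in the window.

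The surroundings of the peaks were compared last. Another optimal summit lay within 1 kb of 32.9% of the CpG-rich promoter peaks, against 22.4% of CpG-poor ones, and the median distance to the nearest was 2.29 kb against 3.40 kb. A repeat-masked base fell in 31.4% of the windows, against 57.8%. A TSS of another biotype on the opposite strand lay within 1 kb of 970 of them, or 15.2%, against 7.24% of CpG-poor peaks, so one-sided here refers to coding genes. Of the CpG-rich promoter peaks 58.7% were 310 bases wide, and this width was given to 96.3% of those below the optimal median signal and 6.18% of those above. In the list, 10 intervals held 2 of these summits each, counted as 20 peaks.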

How the data were processed

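The peak lists, all on mm10, were those of CTCF ChIP-seq in replicate 1, in replicate 2 and in both pooled, with an optimal and a conservative list kept by IDR. Per the deposited description files, both replicates' alignments went into the pooled list, together with another file whose role is not stated. The IDR lists drew on the replicate and pooled lists. Not given in the sources used here: aligner, peak caller, versions and IDR threshold. No control track was used here. The signal is the enrichment per peak that the authors deposited. Neither the authors' −log10 q-value nor their deposited score entered any result. The summit is the authors' offset. Signals of different lists were compared by rank alone.

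The members, gene groups and words were chosen with earlier results of these data known. Coordinates were compared with GRCm38.p6 (the assembly of mm10) and read with GENCODE M21: 90310 TSSs of 20807 coding genes on 19 autosomes. The 19-base motif matrix took 6 rounds and a pseudocount of 1. Its score is the log2 odds over the best stretch within 100 bases, and its threshold came from promoters without a pooled peak. For the gene share, a CpG-rich promoter is a one-sided coding TSS with at least 10 CpG within 100 bases. For a replicate alone, its strongest 73465 peaks were taken. No test was used, as there is 1 group of 2; the 95% Wilson intervals cover counting of peaks. The genes named are those nearest the 12 strongest peaks, the 6 strongest without a motif and the 5 with the most CpG, the strongest of each gene group and the strongest 3 of the intestinal, Wnt, Notch and Hedgehog lists. Genes with 5 peaks and the other intestinal factors were named after their values were seen. Some intestinal factors are not reported here by name. The matrix from CpG-rich peaks and 1 peak a gene were added after seeing the data. Calculations were tested on simulated data and run in Python 3.11.15 with numpy 2.4.6, pandas 2.3.3, scipy 1.17.1 and matplotlib 3.10.9.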

Additional observations from a re-analysis of the deposited data

How the results depend on the processing

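No paired analysis was possible because there is 1 group and no contrast. Results are the share of peaks with a motif (37.9%), of motifs in sense orientation (58.0%), of motifs with a CpG at positions 4 to 16 (81.1%), of summits downstream (47.3%) and of CpG-rich promoter genes with a peak (46.7%), given in that order below. The alternatives were counted as moved where they shifted a share by more than 1 SD between the replicates, a narrow limit with 2 libraries.

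With 1 replicate alone the shares were 37.0 to 37.6%, 58.0 to 58.2%, 80.6 to 80.7%, 47.5 to 48.0% and 47.8 to 48.2%. In the conservative list they were 39.3%, 58.3%, 80.9%, 46.8% and 44.4%. Above the median signal, with 2654 peaks left, they were 59.8%, 60.6%, 84.0%, 38.5% and 21.9%. A minimum of 8 CpG gave 39.3%, 57.2%, 78.5%, 46.7% and 47.3%, and a minimum of 15 gave 35.3%, 57.5%, 85.3%, 48.8% and 39.9%. A distance of 500 bases from the TSS gave 37.3%, 59.3%, 81.4%, 45.3% and 43.1%. At 2 kb the motif, sense, downstream and gene shares were 38.8%, 56.9%, 48.7% and 48.1%. With 1 TSS a gene, the first 4 were 36.9%, 60.1%, 80.6% and 58.6%, which puts the downstream share on the other side of 50%. With one-sidedness judged on TSSs of all biotypes, the last 4 were 58.8%, 81.2%, 48.1% and 45.4%.

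A motif threshold reached by 1% of promoters without a peak gave a motif share of 17.2%, a sense share of 59.5% and a CpG share of 81.8%. A motif within 50 bases gave 34.7%, 58.3% and 82.2%. A matrix from fewer peaks moved the CpG share to 82.1%. The matrix from CpG-rich peaks gave a sense share of 57.5% and a CpG share of 91.0%. With 1 peak a gene the motif, sense, CpG and downstream shares were 40.4%, 58.9%, 81.2% and 46.2%. Counting a match in both replicates by overlap gave 95.2% in place of 92.5%. The cause of these shifts was not tested. The sense share stayed above 50% in every alternative listed. The shares of peaks with a promoter word moved with a wider window.

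The lists hold no read counts, so depth behind a weak peak is unknown. Peaks of a promoter are not independent, both libraries cite 1 biosample, and cell types cannot be separated. The share of peaks with a motif rests on the threshold and the matrix, and the gene share on the number of annotated starts.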
